A study of Homo sapiens with 3 samples.

Results

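Long intergenic noncoding RNAs (lincRNAs) counted well enough for their levels to be compared between libraries were examined in A549, a cell line long established from a human lung adenocarcinoma, with and without shRNAs against DDX24. DDX24 encodes a DEAD-box RNA helicase. Members were chosen by their deposited counts and annotation: they are the genes annotated as lincRNA with at least 100 counts in each of the 3 libraries, without the snoRNA host genes of the SNHG series, GAS5, EPB41L4A-AS1 and ZFAS1. The rule kept 70 of the 7629 lincRNA genes in the files, of which 2463 had at least 1 count in any library. In all, 10447 of 58735 genes had at least 100 counts in each library, 10075 of them protein-coding. The counts that chose them are the same as those behind the ratios reported here, so the members are those with usable values in every library and are not a sample of all lincRNAs.

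There was 1 library per condition. Control-sh came from cells carrying a lentiviral pLKO.1 control, DDX24-sh1 and DDX24-sh2 from cells carrying 1 of 2 shRNAs against DDX24 in the same vector, and all 3 lines were stably selected with puromycin. The shRNA libraries are called sh1 and sh2 for short, and values listed together follow the order control, sh1, sh2. The study's methods describe the control as empty vector and a legend as a control shRNA, and which of them the library holds is not known. No clone, knockdown duration or number of cultures is given for these libraries in the sources used here, nor whether poly(A) RNA was selected or strand was kept.

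With 1 library per condition no difference could be tested. Differences are given as log2 ratios of CPM (counts scaled to a common library size) after TMM scaling, with a prior count of 2. The 95% interval in parentheses is an exact conditional binomial (Clopper-Pearson) interval from the 2 counts. It covers counting error only and leaves out differences between cultures and library preparations. Even for counting error it may be too narrow, since reads that carry no molecular identifier may be copies of 1 molecule. Both ratios to the control share the single control library, so an unusual control value moves both the same way. In RNA from whole cultures, fewer cells making an RNA and less of it per cell cannot be told apart.

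LincRNAs are long RNAs transcribed from between protein-coding genes, and most carry no conserved reading frame. MALAT1 accumulates in nuclear speckles, the bodies that store splicing factors, and the long form of NEAT1 is the scaffold on which paraspeckles are built. The 3′ ends of both are cut by RNase P, and a stretch of U-rich and A-rich elements folds into a triple helix that protects the end in place of a poly(A) tail. NORAD is a mostly cytoplasmic RNA with repeated binding elements for the Pumilio proteins, which repress the mRNAs they bind. MEG3 is transcribed from the imprinted DLK1-MEG3 region and is regarded as a growth-restraining RNA.

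The 3′ stretches of MALAT1 and NEAT1 are shown because both RNAs differed more than 2-fold between libraries and share this unusual end. They were read from GENCODE 29 transcripts (GRCh38), plus strand, at chr11:65445453-65445540 for the long NEAT1 transcript and chr11:65506031-65506116 for MALAT1. Capitals mark, in order, the letters searched for in the U-rich element 1, the U-rich element 2 and the A-rich element, written as DNA. The elements may extend into the lower-case letters beside them.
NEAT1: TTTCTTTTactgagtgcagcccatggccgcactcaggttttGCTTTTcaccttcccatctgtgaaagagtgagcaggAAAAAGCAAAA
MALAT1: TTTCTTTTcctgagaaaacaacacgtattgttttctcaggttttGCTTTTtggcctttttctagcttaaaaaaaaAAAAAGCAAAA
In NEAT1 the stretch covered nucleotides 22656 to 22743, the last of the annotated transcript. In MALAT1 it covered nucleotides 8270 to 8355 of 8708. The 3 elements in this order, with gaps of at most 60 nucleotides and on the transcript's own strand, were found in 2 of 206694 annotated transcripts of all genes, which are the 2 shown. The letters searched for are ones that these 2 RNAs share, so finding both was no test of how rare such ends are. The match describes the letters and no measurement of the structure was made.

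NORAD elements are shown because NORAD was the most counted member in Control-sh and DDX24-sh1. Of its 15 copies of the Pumilio element (the letters TGTA, any base, then ATA, on the strand of the transcript), 5 along the RNA are given with 8 bases on either side, from GENCODE 29 on GRCh38, minus strand, with the element in capitals. They lie at chr20:36050185-36050208, chr20:36049504-36049527, chr20:36048480-36048503, chr20:36047974-36047997 and chr20:36046347-36046370.
element 1: aaggcctgTGTATATAatatgaaa
element 4: cttatctgTGTATATAgtgtacat
element 8: taacacttTGTAAATAgcttttaa
element 11: ccctactgTGTATATAgcggacaa
element 15: agcctattTGTAAATAcctttgtt
HCG11, a single-exon lincRNA of the major histocompatibility region's extended part, held 16 copies in 5696 nucleotides, against 15 in the 5339 of NORAD. The long form of NEAT1 held 6 in 22743. At least 1 copy was found in 18 of the 70 members (25.7%). Of 5754 lincRNA genes with a transcript of at least 500 nucleotides, 727 (12.6%) held at least 1 copy and 4 held 10 or more. The transcript with the most copies was used for each gene. These shares were not adjusted for transcript length or number, so the difference between them was not tested.

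The libraries held 17218884 (control), 18337471 (sh1) and 17847190 (sh2) counts. DDX24 itself had 2010, 637 and 765 counts, a log2 ratio of -1.75 (-1.89 to -1.63) with sh1 and -1.47 (-1.60 to -1.35) with sh2. The deposited FPKM carry the names of the shRNA libraries the other way round. Divided by count and multiplied by gene length they gave 1 constant, within 1%, for 100% of genes with at least 50 counts once the labels were exchanged, and for 5.33% and 5.32% as labelled. DDX24-sh1 and DDX24-sh2 here mean the libraries whose counts carry those names, and which shRNA each one holds is uncertain. Of the epithelial markers, KRT8 and KRT18 were high, with 22548 to 24998 counts of KRT18, and EPCAM had only 29 to 32. KRT19 had 1001, 2251 and 2728 counts, at 1.07 and 1.36, and the cadherin gene CDH1 had 538, 358 and 261, at -0.68 and -1.12, so these 2 moved with the shRNA libraries and their part in the members' differences was not tested. ALDH1A1, abundant in A549, had 96250 to 106051 counts, and the lung markers NKX2-1 and SFTPA1 and the leukocyte markers PTPRC and CD3E had 0 in every library. The lung markers SFTPC and SFTPB had 3, 4 and 4 and 0, 2 and 3 counts, and the leukocyte marker CD68 had 0, 1 and 5. Mitochondrial genes took 4.36%, 5.13% and 7.04% of counts in the order above.

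The 70 members together took 0.155% (0.153 to 0.157) of all counts in the control, 0.146% (0.144 to 0.148) with sh1 and 0.182% (0.180 to 0.184) with sh2. The sh2 library was the highest, and much of its excess lay in MALAT1, NEAT1 and MEG3. Those 3 took 11.4% of the members' counts in the control, 13.7% with sh1 and 27.5% with sh2. The other members took 0.138% (0.136 to 0.139), 0.126% (0.124 to 0.128) and 0.132% (0.130 to 0.134) of all counts, so without the 3 the sh2 share lay below the control and still above sh1.

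Per kilobase of exon the members spanned a wide range of levels. Their mean level ran from 0.481 CPM per kb for LINC00941 to 48.2 for IGFL2-AS1, with a median of 3.88, against a median of 7.83 for protein-coding genes with the same minimum of counts. Only 11 members exceeded 10 CPM per kb. IGFL2-AS1, named for its position antisense to a growth factor-like gene, had 55.3 CPM per kb with sh1 and 40.3 with sh2, and the control lay between them. NORAD followed with 54.0, 42.2 and 42.9. The other members among the 10 highest by mean were AC245041.1, AC090204.1, AC009275.1, AC245041.2, AC092171.2, AC092118.1, LINC01836 and ITGB1-DT, with means from 22.5 down to 12.2 CPM per kb. MALAT1 came 11th at 6.36, 7.81 and 17.6 CPM per kb, and NEAT1 17th at 4.77, 4.61 and 12.1. MEG3, whose merged exons are annotated at 23224 bases, was 63rd at 0.636, 1.14 and 2.71. The order differed between libraries: MALAT1 lay below ITGB1-DT in the control and above it with sh2 (17.6 against 7.29). MALAT1 and the long form of NEAT1 lack a poly(A) tail, and how RNA was selected is not given. Their recovery depends on it, so their place in this order may not be that in the cells.

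**Figure D1:**
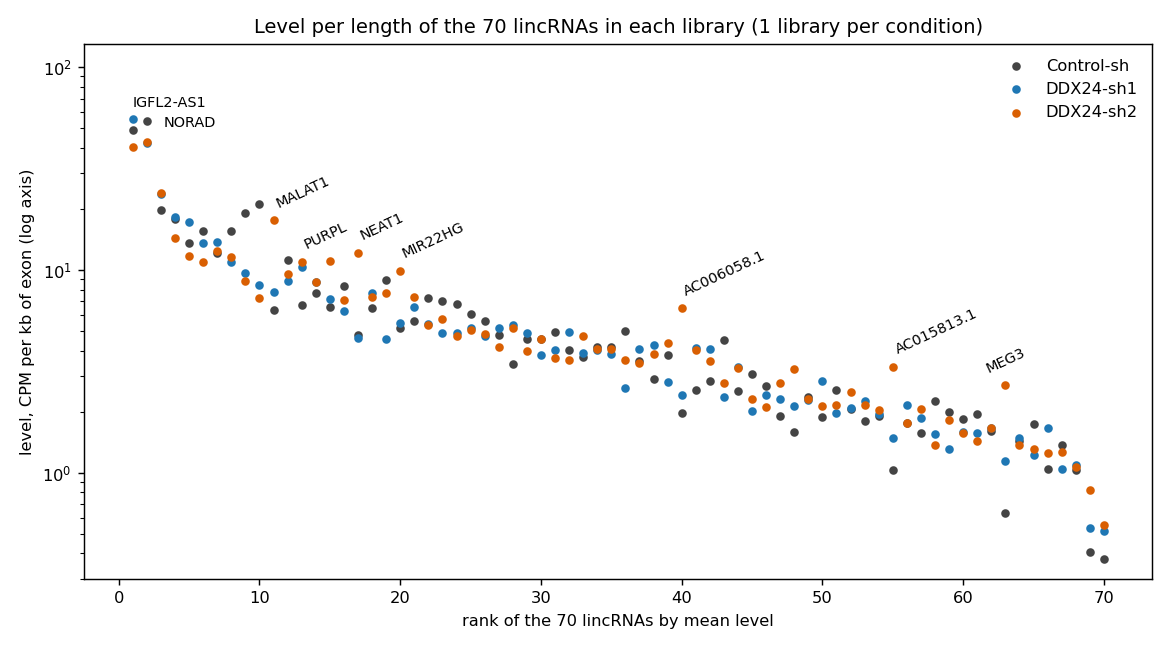
Level of each of the 70 lincRNAs in CPM per kb of exon (log axis) against its rank by mean level, with 1 point per library in grey (Control-sh), blue (sh1) and orange (sh2). The orange points of MALAT1, NEAT1, MIR22HG, AC006058.1, AC015813.1 and MEG3 stand above their other points, while IGFL2-AS1 and NORAD lead at 48.2 and 46.4 on average.

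The members' medians lay close to those of all genes. Their median log2 ratio was 0.05 with sh1 and -0.03 with sh2, beside -0.04 and -0.04 over all 10447 genes with the same minimum. The sizes of the ratios were larger than those of all genes, with medians of 0.30 and 0.31 against 0.20 and 0.20, and the members' counts were mostly low, with intervals from 0.12 to 0.80 log2 units wide. Of the 70, 30 were higher than the control in both shRNA libraries, 29 lower in both and 11 higher in one and lower in the other. Intervals lay above 0 in both for 14 members (20.0%, against 15.3% of all genes) and below 0 in both for 17 (24.3%, against 24.6%).

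More members passed a fold of 2 with sh2 than with sh1. With sh1, 0 of the 70 were at least 2-fold higher than in the control, where 0.622% of all genes were, and 1 was at least 2-fold lower (1.31% of all genes). With sh2, 7 members (10.0%) were at least 2-fold higher, against 0.718% of all genes, and 2 were at least 2-fold lower, against 1.88%. Those 7 were MEG3, AC006058.1, AC015813.1, MALAT1, NEAT1, MUC20-OT1 and LINP1, and the 2 were ITGB1-DT and LINC01836. Compared directly, 5 members were at least 2-fold higher with sh2 than sh1, among 20 such genes in all (0.191%), and 0 were at least 2-fold lower (0.172% of all genes). In both shRNA libraries against the control, 0 members were at least 2-fold higher (0.297% of all genes) and 1, ITGB1-DT, at least 2-fold lower (0.967%). The members passing a fold of 2 with sh2 alone were singled out after their values were seen.

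**Figure D2:**
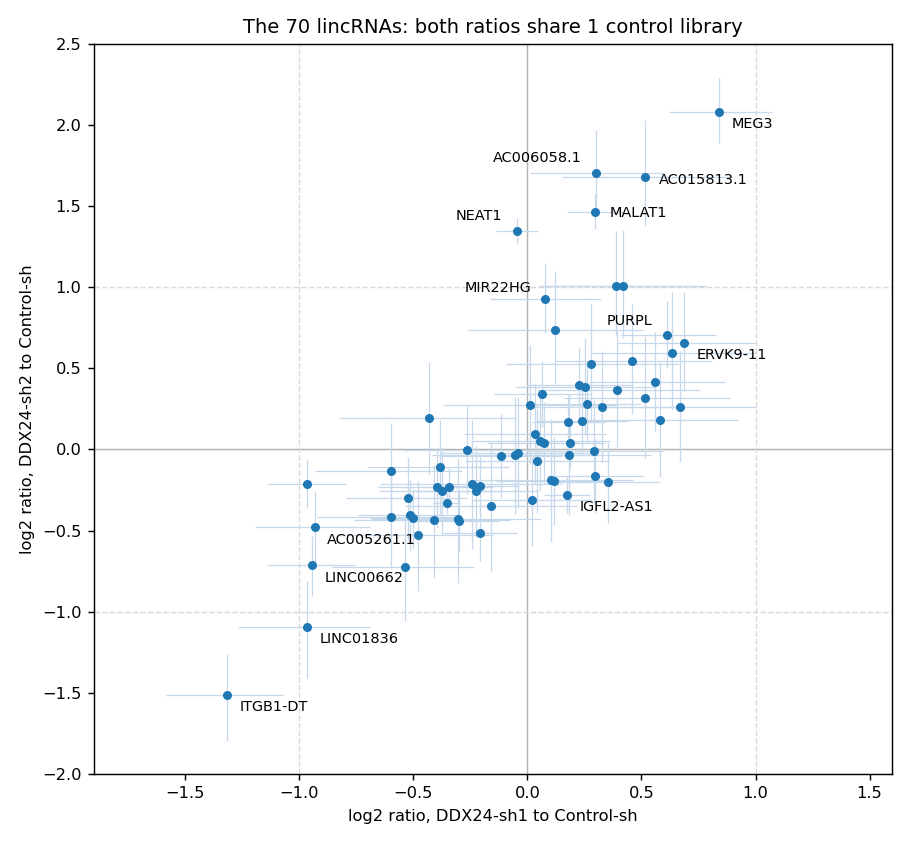
Log2 ratio to Control-sh of the 70 lincRNAs with sh1 (horizontal) and sh2 (vertical), with 95% counting intervals and dashed lines at 2-fold. Most points lie within 2-fold on both axes, ITGB1-DT lies beyond -1 on both, and MEG3, AC006058.1, AC015813.1, MALAT1 and NEAT1 lie above 1 on the vertical axis only.

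The nuclear RNAs MALAT1, NEAT1 and MEG3 were highest with sh2. MALAT1 (ENSG00000251562, chr11:65497688-65506516) had 958 counts in the control, 1261 with sh1 and 2799 with sh2, or 56.1, 68.9 and 155 normalised CPM. Its log2 ratio was 0.30 (0.17 to 0.42) with sh1 and 1.46 (1.36 to 1.57) with sh2. The sh2 library was thus 2.76-fold above the control, while sh1 lay much nearer to it. Whether the recovery of RNAs without a poly(A) tail differed between the libraries was not tested.

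NEAT1 (ENSG00000245532, chr11:65422774-65445540) had 1852, 1921 and 4990 counts in the same order, or 109, 105 and 276 CPM. Control-sh and sh1 differed by no more than counting error, with a log2 ratio of -0.05 (-0.14 to 0.05), and sh2 stood apart at 1.35 (1.27 to 1.43). Counts per gene do not separate the short, polyadenylated form of NEAT1 from the long one.

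MEG3 (ENSG00000214548, chr14:100779410-100861031) had 252, 485 and 1135 counts, or 14.8, 26.5 and 62.9 CPM. All 3 libraries differed beyond counting error, in the order Control-sh, sh1, sh2. The log2 ratios were 0.84 (0.62 to 1.07) and 2.08 (1.89 to 2.29), the latter a 4.26-fold difference and the largest of any member.

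Set directly against sh1, the log2 ratio of sh2 was 1.17 (1.07 to 1.27) for MALAT1, 1.40 (1.32 to 1.47) for NEAT1 and 1.24 (1.09 to 1.40) for MEG3. DDX24 itself was somewhat less reduced with sh2, with a ratio between the shRNA libraries of 0.28 (0.13 to 0.44). The sh2 library was also the one with the highest mitochondrial share (7.04%), whose part in these differences was not tested. Of the 12 nuclear and chromatin lincRNAs on the list used here, 6 had at least 100 counts in each library, some under biotypes other than lincRNA. Their median log2 ratio was 0.11 with sh1 and 0.62 with sh2, beside -0.04 and -0.04 over all genes. Intervals lay above 0 for 3 with sh1 (MALAT1, MEG3 and the processed transcript entry of LINC-PINT) and below 0 for 2, against 25.4% and 34.5% of all genes. With sh2 they lay above 0 for 3 (MALAT1, NEAT1 and MEG3) and below 0 for 1, against 24.2% and 35.8%. TUG1, annotated as a bidirectional promoter RNA, was at -0.46 and -0.13, and CRNDE, an RNA raised in colorectal tumours, was at -0.60 (-0.93 to -0.29) and -0.13 (-0.43 to 0.16).

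**Figure D3:**
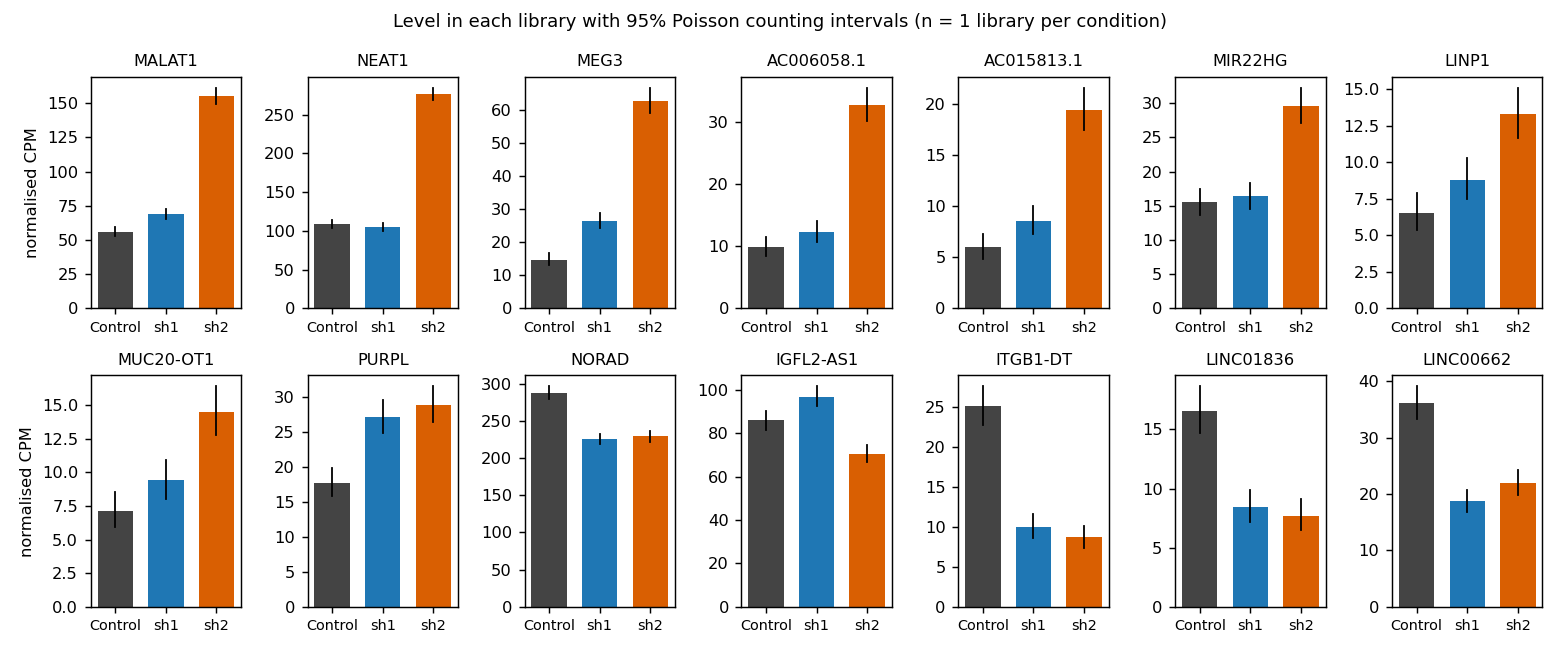
Normalised CPM of 14 lincRNAs in the control, sh1 and sh2, as bars from 0 with 95% Poisson counting intervals, n = 1 library per bar. The bars of MALAT1, NEAT1, MEG3, AC006058.1, AC015813.1 and MIR22HG are highest with sh2, PURPL is higher in both shRNA libraries (27.2 with sh1 against 17.8 in the control), and ITGB1-DT, LINC01836 and LINC00662 are lower in both.

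Genes for paraspeckle proteins, which assemble on the long form of NEAT1, were set beside it. Of 16 listed, 15 had at least 100 counts in each library, and 0 of these were 2-fold from the control. Their median log2 ratio was -0.13 with sh1 and 0.06 with sh2, beside -0.04 and -0.04 over all genes. Intervals lay above 0 in both libraries for 4 (26.7%, against 15.3% of all genes) and below 0 in both for 5 (33.3%, against 24.6%). RBM14, a protein needed for paraspeckles to form, had 869, 1719 and 1783 counts, at 0.88 and 0.95 (0.84 to 1.07). The other 3 above 0 were PSPC1, TAF15 and EWSR1, at 0.49 and 0.48, 0.39 and 0.61, and 0.34 and 0.43. The core proteins NONO and SFPQ lay at -0.06 and -0.03 and at -0.04 and 0.10. For sh2 over sh1 the 15 had a median of 0.13, beside -0.01 over all genes. Their intervals there lay above 0 for 10 (66.7%, against 22.8% of all genes) and below 0 for 0 (27.4% of all genes). NEAT1 was at 1.40 in that comparison, and a link between them was not tested.

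Genes that act in the turnover of nuclear RNA had more low than high values with sh1. All 17 listed, subunits of the nuclear exosome and its adaptors among them, had at least 100 counts, with medians of -0.21 with sh1 and -0.08 with sh2. With sh1, intervals lay below 0 for 11 (64.7%, against 34.5% of all genes) and above 0 for 0 (25.4% of all genes). With sh2 they lay below 0 for 6 (35.3%, against 35.8%) and above 0 for 6 (35.3%, against 24.2%). ZCCHC8, a scaffold of the exosome adaptor NEXT, was at -0.63 (-0.81 to -0.46) and -0.17 (-0.34 to -0.01), and its partner RBM7 at -0.42 in each. Of the catalytic subunits, EXOSC10 was at 0.00 and 0.40 (0.26 to 0.55) and DIS3 at -0.21 (-0.34 to -0.08) and -0.12 (-0.25 to 0.01). METTL16, an RNA methyltransferase that binds the triple helix of MALAT1, had 1786, 1516 and 1488 counts, at -0.34 and -0.34. For sh2 over sh1 the 17 had a median of 0.21, beside -0.01 over all genes. Their intervals there lay above 0 for 10 (58.8%, against 22.8% of all genes) and below 0 for 1 (5.88%, against 27.4%).

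Apart from the 3 nuclear RNAs, 4 further members were at least 2-fold higher with sh2. AC006058.1 (chr3:44117299-44122365, 1 exon block) had 170, 225 and 591 counts, at 0.30 (0.01 to 0.60) and 1.71 (1.47 to 1.97). The unclassified transcript AC006058.4 on the opposite strand shares 189 exon bases with it and had 51, 76 and 195 counts, so without knowledge of strand the reads of the pair cannot be assigned to either with certainty. AC015813.1 (chr17:57989039-57994850, 1 exon block) had 102, 157 and 350 counts, at 0.51 (0.15 to 0.90) and 1.68 (1.38 to 2.03). The protein-coding gene AC015813.2 on the same strand shares 379 exon bases with it and had 0 counts in each library. How reads in the shared bases were assigned is not given in the sources used here. AC015813.1 ends 780 bases from VEZF1, a zinc-finger transcription factor gene on the same strand. VEZF1 had 1845, 1250 and 1311 counts and was lower in both shRNA libraries.

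LINP1, an RNA linked to the joining of broken DNA ends, and MUC20-OT1, which overlaps MUC20, were just past a fold of 2. LINP1 had 112, 161 and 240 counts, at 0.42 (0.07 to 0.78) and 1.01 (0.69 to 1.36). MUC20-OT1 had 122, 172 and 262 counts, at 0.39 (0.05 to 0.74) and 1.01 (0.71 to 1.34). MUC20-OT1 shares 1924 bases at 99.2% identity with SDHAP1, whose counts were 151, 110 and 208, so its value is uncertain. Below that fold, LINC00973 had 108, 126 and 192 counts, with sh2 at 0.74 (0.40 to 1.10).

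MIR22HG, the host transcript of the microRNA miR-22, had 265, 300 and 534 counts. The sh1 library was within counting error of the control at 0.08 (-0.16 to 0.32), and sh2 was at 0.93 (0.71 to 1.15). On the list of RNAs linked to stress or NF-kB, 4 of 10 had at least 100 counts, namely MIR22HG, NEAT1, MALAT1 and the antisense RNA LUCAT1. Their median was 0.02 with sh1 and 1.14 with sh2, beside -0.04 and -0.04 over all genes. It covers only these 4, of which MALAT1 and NEAT1 are also on the nuclear list. LUCAT1 was at -0.20 and 0.01.

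Among the 5 members at least 2-fold higher with sh2 than sh1, 4 consist of 1 exon block: MALAT1, NEAT1, AC006058.1 and AC015813.1. Of all 70 members, 18 have 1 exon block, and their median ratio between the shRNA libraries was 0.14, against -0.01 for the 52 with several. NORAD, also of 1 exon block, was at 0.02 (-0.04 to 0.09). Blocks are the exons of all annotated transcripts of a gene merged, so 1 block does not mean that every transcript is unspliced. The intervals of 15 members lay above 0 in this comparison and those of 10 below, which is 21.4% and 14.3%, against 22.8% and 27.4% of all genes.

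Some members were higher in both shRNA libraries by similar amounts. PURPL, a p53-induced RNA that lowers p53 levels, had 303, 497 and 523 counts, at 0.61 (0.41 to 0.82) and 0.70 (0.50 to 0.92). Both shRNA libraries were above the control and did not differ beyond counting error from each other. ERVK9-11, named for an endogenous retrovirus of the K family, had 145, 251 and 243 counts, at 0.68 and 0.66 (0.36 to 0.97). LINC01116 had 104, 174 and 167 counts, at 0.63 and 0.59, and LINC00941 had 121, 179 and 188, at 0.46 and 0.55. Another entry named LINC00941 on the same strand shares 1250 exon bases with it and had 0 counts in each library. LINC01963 lay at 0.56 and 0.41 and LINC00997 at 0.39 and 0.37. In each of these 6 the intervals excluded 0 in both libraries, as they also did for MEG3, AC015813.1, LINP1 and MUC20-OT1, the other members with the largest smaller ratio. Of 8 p53-linked RNAs listed, 4 had at least 100 counts, with medians of 0.17 and 0.52, beside -0.04 and -0.04 over all genes. They were PURPL, NEAT1, PVT1 and LINC-PINT, the last annotated as a processed transcript and at 0.27 and -0.10. Another LINC-PINT entry, annotated as lincRNA, had only 5, 17 and 39 counts, at 1.36 (0.17 to 3.46) and 2.49 (1.54 to 4.58). NEAT1 and LINC-PINT are also on the nuclear list. PVT1, neighbour of MYC, had 350, 392 and 469 counts, at 0.06 (-0.15 to 0.28) and 0.34 (0.14 to 0.55).

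ITGB1-DT was the one member at least 2-fold lower in both. It is the divergent transcript of ITGB1, the gene of the integrin β1 chain that binds cells to the matrix (ENSG00000229656, chr10:32958845-33082102). It had 428 counts in the control, 183 with sh1 and 157 with sh2, or 25.1, 10.0 and 8.70 CPM. The shRNA libraries held 39.9% and 34.7% of the control level, at -1.32 (-1.58 to -1.07) and -1.52 (-1.80 to -1.26), and did not differ beyond counting error from each other. ITGB1 had 39295, 41011 and 41322 counts, at -0.04 and -0.01. The exons of the pair overlap by 42 bases on opposite strands.

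LINC01836 (chr19:782755-785080) had 283, 154 and 139 counts, at -0.97 (-1.27 to -0.69) and -1.10 (-1.41 to -0.81), which is 50.8% and 46.4% of the control. LINC00662 had 616, 342 and 396 counts, at -0.94 (-1.14 to -0.76) and -0.72 (-0.90 to -0.53). AC005261.1 had 365, 204 and 276 counts, at -0.93 and -0.48, with sh1 below sh2. In these 3 the control library was the highest and no interval reached 0. The others among the 10 lowest in both were LINC02001, AC092118.1, LINC02086, AC084033.3, MIR4435-2HG and a Y-linked member that is counted but not named. The first 5 had ratios from -0.41 to -0.60 with sh1 and -0.40 to -0.52 with sh2. LINC02086 and AC103702.2 overlap by 32 exon bases on opposite strands, and AC103702.2 was at 0.10 and -0.19.

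NORAD (ENSG00000260032, chr20:36045622-36050960) was lower in both by little and very evenly. It had 4919, 4122 and 4137 counts, or 288, 225 and 229 CPM. The log2 ratios were -0.35 (-0.41 to -0.29) and -0.33 (-0.39 to -0.27), 78.2% and 79.5% of the control. HCG11, the other member rich in Pumilio elements, had 250, 206 and 221 counts, at -0.38 (-0.65 to -0.11) and -0.26 (-0.53 to 0.01). PUM2, which encodes a Pumilio protein, had 3005, 2397 and 2619 counts, at -0.43 and -0.28. Of 6 cytoplasmic RNAs described as decoys, 4 had at least 100 counts, with medians of -0.24 and -0.28, beside -0.04 and -0.04 over all genes. They were NORAD, CYTOR, and, under another biotype, OIP5-AS1 (-0.25 and -0.64) and DANCR (-0.23 and 0.01).

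Other members differed between the 2 shRNA libraries in sign or size. IGFL2-AS1 had 1465, 1772 and 1274 counts, at 0.17 (0.07 to 0.28) with sh1 and -0.28 (-0.39 to -0.17) with sh2. It was the single member whose intervals lay above 0 in one and below 0 in the other, so Control-sh lay between the shRNA libraries. AC009275.1 had 278, 381 and 255 counts, at 0.35 (0.13 to 0.58) and -0.20 (-0.46 to 0.05). AL161431.1 had 772, 423 and 704 counts, at -0.96 (-1.14 to -0.79) and -0.21 (-0.36 to -0.06) and so was lowest with sh1.

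The nearest protein-coding gene with at least 100 counts in each library lay within 10 kb for 30 of the 70 members. Across all 70 pairs the ratios of a member and its neighbour had a Pearson r of 0.23 with sh1 and 0.08 with sh2. These values are a description over pairs that share the same libraries. In 9 pairs the genes lie on opposite strands with starts within 2000 bases. There the ratios had the same sign in 6 of 9 with sh1 and 4 of 9 with sh2. Among these pairs, MAPKAPK5-AS1, MIR22HG and PSMG3-AS1 overlap their neighbours MAPKAPK5, WDR81 and PSMG3. MAPKAPK5-AS1 shares 792 exon bases with MAPKAPK5, so without knowledge of strand the reads of that pair cannot be assigned with certainty.

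Single pairs ranged from close to opposite. AC009275.1 lies 9897 bases downstream of AKR1B1, the aldose reductase gene, on the same strand. AKR1B1 had 154219, 236561 and 135635 counts, at 0.52 and -0.27, beside 0.35 and -0.20 for the lincRNA. The lincRNA had only 278, 381 and 255 counts, and whether reads running on from AKR1B1 are among them was not tested. AC092118.1 shares 97 exon bases with the kinesin gene KIFC3 on the opposite strand, and the pair was at -0.50 and -0.42 against -0.50 and -0.61. The lincRNA had 562, 425 and 443 counts and KIFC3 had 6306, 4769 and 4364. Without knowledge of strand the reads of this pair cannot be assigned with certainty either. AL161431.1 and IRS2, an insulin receptor substrate gene 474186 bases away, were both lower, but IRS2 lay at -0.80 and -1.27 and so was lowest in the other shRNA library.

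NEAT1 and MEG3 differed from the genes beside them. FRMD8, 9249 bases from NEAT1, had 1244, 1827 and 1297 counts, at 0.45 (0.35 to 0.56) and -0.02 (-0.13 to 0.09). WDR25, 249107 bases from MEG3, had 173, 238 and 172, at 0.36 and -0.09. Neither gene was above the control beyond counting error with sh2, where the lincRNAs were. CAPRIN2, 40507 bases from LINC00941 and transcribed away from it, had 251, 423 and 641 counts, at 0.65 and 1.27. MYC, 53099 bases from PVT1, had 3415, 2288 and 2356 counts, at -0.68 and -0.62.

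Several members carry microRNA genes, 13 in 8 members. The mature microRNAs of 3 hosts named above or below are shown for that reason, from RefSeq on GRCh38.p14, with the seed (bases 2 to 8) in capitals. They lie at chr17:1713914-1713935 (minus strand) for miR-22-3p, at chr2:87629764-87629785 (plus strand) for the copy of miR-4435 in CYTOR and at chr2:111321061-111321082 (minus strand) for that in MIR4435-2HG.
miR-22-3p: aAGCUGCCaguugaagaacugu
miR-4435 in CYTOR: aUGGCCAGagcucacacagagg
miR-4435 in MIR4435-2HG: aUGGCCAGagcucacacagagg
The small RNAs themselves were not measured here. Of 17 microRNA hosts listed, 4 had at least 100 counts, with medians of 0.07 and 0.36, beside -0.04 and -0.04 over all genes. MIR193BHG, host of miR-193b and miR-365a, had 162, 207 and 224 counts, at 0.25 (-0.05 to 0.56) and 0.38 (0.09 to 0.69).

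CYTOR and MIR4435-2HG are copies of one gene on chromosome 2 and share 2254 bases at 99.2% identity. CYTOR had 556, 515 and 503 counts, at -0.21 (-0.39 to -0.03) and -0.22 (-0.40 to -0.05). MIR4435-2HG had 390, 292 and 311, at -0.51 (-0.74 to -0.29) and -0.40 (-0.63 to -0.19). Both were lower in the shRNA libraries, and how their shared reads were divided is not given in the sources used here. In all, 9 members matched a transcript of another locus at 97% identity or more over at least 300 bases. They include AC245041.2, which shares 1971 bases at 98.7% with ANXA8, and NORAD, which shares 1036 at 98.2% with LINC02211, a gene with 0, 0 and 3 counts.

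At the edge of the minimum, members just inside were LINC01547 (122, 117 and 101 counts) and AC015813.1 (102, 157 and 350). Just outside were AC009414.2 (132, 103 and 99), LINC00467 (103, 96 and 112) and TP53TG1 (96, 156 and 151). AC015813.1 thus passed by 2 counts in the control.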

How the data were processed

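Counts per gene, deposited by the authors as whole numbers without normalization, were used for 3 libraries of A549 cells, 1 per condition. The authors also deposited FPKM values made from the same counts, used as an alternative only. Bowtie2 2.0.6, TopHat2 2.0.9, Cufflinks 2.1.1 and Cuffdiff 2.1.1 are named in the submitters' processing notes; the counting step and its handling of strand and shared reads are not given in the sources used here. All 58735 genes match GENCODE 29 (GRCh38).

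Ratios were computed over all genes with edgeR 4.0.16 in R 4.3.3 (TMM, prior count 2) and intervals with scipy 1.17.1. No model was fitted and no p-value computed. The steps were tested on simulated Poisson counts, which hold counting error only. That check therefore says nothing about differences between cultures or library preparations. The members and lists were chosen with earlier results of these data known. Named were MALAT1 and NEAT1, the 10 members with the highest level per length, those 2-fold in both libraries, the 10 with the largest and 10 with the lowest smaller ratio, those with opposite signs beyond both intervals, list members, the 3 on either side of the minimum, and neighbouring genes. Others were chosen after their values were seen, and some genes these rules cover are not reported here. The lists were nuclear and chromatin, cytoplasmic decoy, p53-linked, stress and NF-kB linked, micropeptide and microRNA host lincRNAs, and paraspeckle protein and nuclear RNA turnover genes. Copies were searched with BLAST among annotated transcripts. Alternatives were DESeq2 1.42.0 size factors, total counts, a prior count of 0.5, log2(FPKM + 0.1) and other minimums, members and folds.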

Additional observations from a re-analysis of the deposited data

Results flagged for a closer look

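IGFL2-AS1 was higher than the control in DDX24-sh1 and lower in DDX24-sh2, and the log2 ratio of sh2 over sh1 was -0.46 (interval -0.56 to -0.35). It was picked out because its intervals lay on opposite sides of 0 in the 2 shRNA libraries. With 1 library per condition the difference was not tested.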

How the results depend on the processing

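The medians of the members moved by less than the median half-width of a member's interval (0.29) under every scaling, minimum and choice of members tried. They ranged between -0.15 and 0.06 for sh1 and between -0.20 and 0.06 for sh2, so their signs changed between alternatives. The count of members 2-fold higher in both stayed at 0 except where named here, and that of members 2-fold lower in both stayed at 1 except likewise. With a fold of 1.5 in place of 2, 4 members were higher in both and 3 lower. The count lower in both was 3 with a minimum of 50 counts, 0 with a minimum of 200, 2 with a mean of at least 100, and 0 among the 24 members that overlap no other gene or, chosen after seeing the data, the 26 that overlap none but small RNA genes. With no minimum beyond 1 count it was 119, with 93 higher, of 2454 genes. Leaving out MALAT1, NEAT1 and MEG3, also chosen after seeing the data, could not change these counts, since none of the 3 was 2-fold in both libraries. Without mitochondrial genes the members' share was 0.162%, 0.154% and 0.196%. With the FPKM as labelled, DDX24 was at -1.45 in DDX24-sh1 and -1.72 in DDX24-sh2, NEAT1 at -0.033 in DDX24-sh2, and 35 of 72 ratios of the 36 named members, that of NEAT1 included, left their intervals; with the labels exchanged, all 72 stayed inside them. No paired analysis was possible because the conditions hold 1 library each and share no pairing label, so no library could be left out either. At this depth a member with about 100 counts has an interval close to 0.80 log2 units wide.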

Other observations

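Besides the members, 30 lincRNAs had at least 100 counts in some but not all libraries. OLMALINC, named for a part in oligodendrocyte maturation, had 235 control, 77 sh1 and 108 sh2 counts, at -1.68 (-2.10 to -1.33) and -1.19 (-1.54 to -0.87), and AF127577.4 had 138, 62 and 70, at -1.23 and -1.04. AC048341.1 was higher in both, with 23, 77 and 100 counts. FTX, a noncoding gene of the X-inactivation centre, had 91, 93 and 276 counts, or 5.33, 5.08 and 15.3 CPM. MIR34AHG, the host of the p53-induced miR-34a, had 75, 98 and 227 counts, at 0.28 (-0.16 to 0.74) and 1.49 (1.13 to 1.91), and MIR503HG had 42, 32 and 102. In these last 3, as in MALAT1 and NEAT1, DDX24-sh2 was above both other libraries. Passing the minimum in 1 library only through a high value there selects such genes, so their number says nothing about lincRNAs as a class.

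The 20 genes at least 2-fold higher in DDX24-sh2 than in DDX24-sh1 comprised 5 members, 12 protein-coding genes, 1 antisense gene and 2 pseudogenes. CENPE, a kinetochore motor, had 243, 174 and 612 counts, and KIF20B, a kinesin of cytokinesis, 344, 312 and 825. LENG8 had 976, 1100 and 2560 counts and the pseudogene HERC2P2 had 911, 1022 and 2616. SNHG12, a snoRNA host annotated as antisense, had 148, 115 and 291. No gene group was tested among them.

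Of 6 loci described as lincRNAs that encode small proteins, 4 had at least 100 counts, all now annotated as protein-coding and so not members. Their median log2 ratio was 0.17 with sh1 and -0.08 with sh2, beside -0.04 and -0.04 over all genes. NBDY had 829, 1025 and 739 counts, at 0.21 (0.07 to 0.34) and -0.25 (-0.39 to -0.10).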
